A study of Saccharomyces pastorianus with 18 samples.

Results

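The thiamine synthesis and uptake genes described here are 8 genes of lager yeast, THI2, THI3, THI4, THI6, THI7, THI20, THI21 and PHO3. They were chosen by gene name, with earlier results of these libraries in view. Large changes of THI4 and THI20 in the strain CBS1538 11.1 were already known. The changes within CBS1538 11.1 and the strain differences in a change are therefore given as a description, without a p-value. So are all strain comparisons, since the same CBS1538 11.1 libraries enter them. The 8 names match 13 of the 11979 rows of the deposited count table, which names 7568 genes when copies that share a name are summed. Lager yeast, Saccharomyces pastorianus, arose by hybridisation of S. cerevisiae and S. eubayanus and holds chromosomes of both, so a gene can have a copy in each sub-genome.

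Thiamine, vitamin B1, is made in yeast by joining a thiazole and a pyrimidine, each built on its own branch, and its diphosphate is the cofactor of pyruvate decarboxylase, the enzyme that leads to ethanol, and of transketolase. In S. cerevisiae the genes of the pathway are known to be held low when thiamine is plentiful and switched on when it is scarce, through the regulators Thi2, Thi3 and Pdc2. Brewing yeast can take up thiamine from wort. The roles given below are those known from S. cerevisiae.

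The libraries come from 2 mutant strains, W34/70 9.7 and CBS1538 11.1, that were obtained from the lager strains W34/70 and CBS1538 by exposure to radicicol, an inhibitor of the chaperone Hsp90, followed by selection for resistance to phenylalanine analogues (B2TA or PFPA). Each strain was grown in a minimal medium of dextrose (1%), maltose (1%) and, for nitrogen, ammonium sulfate (0.5%) at 20 °C and harvested during exponential growth, and in 10% wort with 1 mM ZnSO4 at 13 °C, without shaking, and sampled on day 4 and day 2. There are 3 libraries in each of the 6 groups, described as triplicate cultures. Each mutant is 1 resistant colony, and both carry the history of radicicol and analogue selection, so a strain difference here is a difference between 2 isolates. The labels of the CBS1538 11.1 day 2 libraries disagree, since the title names the mutant and the strain field the parent, and each comparison with them carries that doubt. Medium, temperature and growth phase differ together between minimal medium and wort and cannot be told apart. The thiamine content of either medium was not among the labels.

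Libraries held 5266324 to 19467656 counts, and 1 CPM (counts per 1000000, after correction for library composition) stood for 4.55 to 22.8 counts. The S. eubayanus sub-genome took 30.0% to 34.9% of the counts in W34/70 9.7 libraries and 88.0% to 89.4% in CBS1538 11.1 libraries. Of the W34/70 9.7 libraries, day 4 replicate 1 and day 2 replicate 2 stood apart: they held 1417 and 1465 counts on S. eubayanus chromosome VII, against 284445 to 396506 in the other 7. Results with copies summed that rest on these 2 libraries are given with and without them. Summed markers of sporulation (6 genes) averaged 24.0, 65.8 and 43.4 CPM in minimal medium, on day 4 and on day 2 in W34/70 9.7, and 26.2, 66.3 and 42.5 CPM in CBS1538 11.1. Those of haploid cells and mating (8 genes) averaged 24.6, 56.9 and 29.0 CPM in W34/70 9.7 and 24.7, 42.5 and 26.5 CPM in CBS1538 11.1. Both sums had their highest mean on day 4 in both strains, as did several of the thiamine genes, and their part in the results was not tested.

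THI2, THI4, THI6, THI7 and THI20 have 1 row in each sub-genome. THI3, THI21 and PHO3 have an S. cerevisiae row alone; 943 S. eubayanus rows carry no gene symbol and were not searched for counterparts. In S. cerevisiae coordinates (build R64) THI4 (YGR144W) lies on VII at 780399 to 781379, THI20 (YOL055C) on XV at 224420 to 226075, THI6 (YPL214C) on XVI at 148569 to 150191, THI21 (YPL258C) on XVI at 53498 to 55153, THI7 (YLR237W) on XII at 612367 to 614163, THI2 (YBR240C) on II at 700490 to 701842, THI3 (YDL080C) on IV at 310642 to 312471 and PHO3 (YBR092C) on II at 427698 to 429101. THI4 and THI7 are on the plus strand and the other 6 on the minus strand. On the S. eubayanus sub-genome the copies are DI49_2107 (THI4, VII), DI49_2348 (THI20, XV), DI49_5254 (THI6, XVI), DI49_3747 (THI7, XII) and DI49_1263 (THI2, IV). All 13 rows passed the filter on low counts.

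In CBS1538 11.1 nearly all of the counts of these genes came from S. eubayanus copies. The S. cerevisiae copies of THI2, THI3, THI4, THI7 and THI21 had 0 counts in all 9 libraries, THI6 had 9 counts and THI20 2 counts. Few features of the S. cerevisiae chromosomes that carry them had counts in this strain, with 0.837% (IV) to 3.07% (II) of features at 1 CPM or more on II, IV, XII, XV and XVI, and 16.3% on VII. PHO3 was the exception among the S. cerevisiae rows, with 352 counts in CBS1538 11.1. Its neighbours TIM12 and PBY1 had 0 and 4 counts there, and PHO5, its close paralog next to it, had 136. The origin of the PHO3 counts in CBS1538 11.1 was not tested, and its level there is uncertain.

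Corrected for gene length, the order of the genes changed with the condition. In minimal medium THI6 led in W34/70 9.7 at 29.0 CPM per kb, ahead of THI7 at 21.2, and their libraries did not overlap, while THI2, THI4 and PHO3 were lowest at 4.29, 3.27 and 2.93 CPM per kb with overlapping neighbours. On day 4 THI7 (148 CPM per kb), THI20 (105) and THI6 (58.0) were highest in W34/70 9.7; the libraries of THI7 overlapped those of THI20, and those of THI20 overlapped those of THI6. In CBS1538 11.1 THI4 was the lowest gene with counts in minimal medium (0.755 CPM per kb) and the highest on day 4 (686 CPM per kb), where its libraries overlapped those of THI7 (344 CPM per kb). PHO3 was the lowest gene with counts in 5 of the 6 groups.

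**Figure D1:**
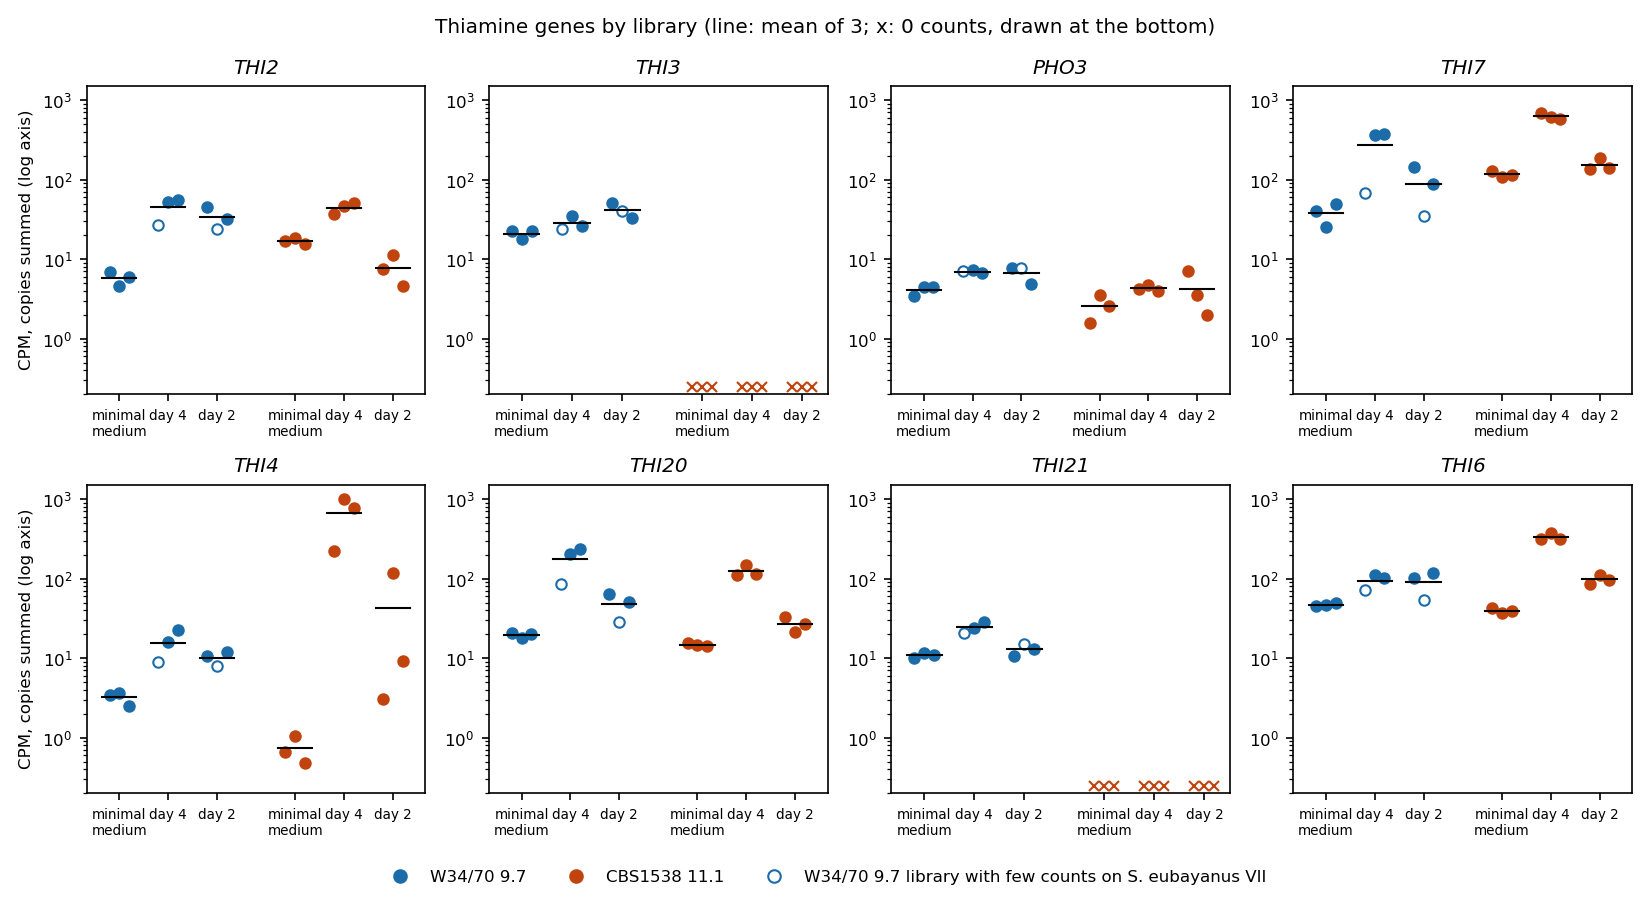
Level of each gene in each library, in CPM with the copies of a gene summed, on a log axis; W34/70 9.7 is left of CBS1538 11.1 in each panel, and black lines are means of 3 libraries. THI4 spans 0.477 to 1005 CPM in CBS1538 11.1 and 2.53 to 22.3 CPM in W34/70 9.7, and the crosses of THI3 and THI21 mark 0 counts.

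The regulator THI2, an activator of the thiamine genes, was low in minimal medium in W34/70 9.7. Its 3 libraries had 6.84, 4.64 and 5.95 CPM in minimal medium (replicates 1 to 3, here and below), 26.9, 52.1 and 56.1 CPM on day 4, and 45.6, 24.2 and 32.1 CPM on day 2. All minimal medium libraries lay below all wort libraries, and the days overlapped. THI2 fell 7.72-fold in minimal medium against day 4 (log2 change -2.95, SE 0.338, adjusted p = 2.2e-06, edgeR) and 5.83-fold against day 2 (-2.54, SE 0.334, adjusted p = 4.95e-06, edgeR). Day 4 against day 2 gave 0.41 (SE 0.311, adjusted p = 0.319, edgeR), a difference smaller than the spread between libraries. The copies differed. Minimal medium against day 2 gave -2.94 for the S. cerevisiae copy and -0.79 for the S. eubayanus copy (adjusted p = 0.000153 and 0.2, edgeR). Against day 4 the copies gave -3.26 and -2.07 (adjusted p = 0.000151 and 0.00352, edgeR). For day 4 against day 2 they gave 0.315 and 1.28 (adjusted p = 0.553 and 0.0607, edgeR).

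In CBS1538 11.1 the order was another one. THI2 had 16.9, 18.4 and 15.4 CPM in minimal medium, 36.4, 46.3 and 50.9 CPM on day 4, and 7.48, 11.2 and 4.57 CPM on day 2. The 3 groups did not overlap, with day 4 highest and day 2 lowest. Its level on day 2 rested on 34, 95 and 39 counts. THI2 was thus the 1 member with a higher level in minimal medium than on day 2 in this strain (log2 change 1.12, SE 0.337). It was 0.71 without day 2 replicate 3, which ended the call. In the fit with copies apart, its S. eubayanus copy gave 0.98 (SE 0.472) and was not called.

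THI3 is a protein that binds thiamine diphosphate and acts with Thi2. Its named row, on the S. cerevisiae sub-genome alone, had counts in W34/70 9.7 only. S. eubayanus rows without a symbol were not searched for a counterpart. In W34/70 9.7 THI3 had 22.8, 17.8 and 22.4 CPM in minimal medium, 23.9, 34.4 and 26.1 CPM on day 4, and 50.4, 40.3 and 33.1 CPM on day 2. It fell 1.97-fold in minimal medium against day 2 (log2 change -0.98, SE 0.25, adjusted p = 0.00489, edgeR), and to -0.62 with library totals as the scaling, which ended the call (adjusted p = 0.0728, edgeR). Day 4 lay between the other conditions and passed the test against neither.

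THI4 is the enzyme that makes the thiazole. In W34/70 9.7 it had 3.49, 3.59 and 2.53 CPM in minimal medium, 8.99, 15.9 and 22.3 CPM on day 4, and 10.8, 7.95 and 11.8 CPM on day 2. Minimal medium was below both wort days in every library. It fell 4.88-fold in minimal medium against day 4 (log2 change -2.29, SE 0.856, adjusted p = 0.0314, edgeR), and 3.17-fold against day 2 with an adjusted p of 0.099 (edgeR). The estimate of its spread was shared with CBS1538 11.1, where it varied far more. With the S. cerevisiae copy alone, which holds nearly all of its W34/70 9.7 counts, the values were -2.43 (adjusted p = 0.000753, edgeR) against day 4 and -1.82 (adjusted p = 0.0025, edgeR) against day 2. With the copies summed, the call against day 4 was lost without day 4 replicate 2 (-2.32), without day 4 replicate 3 (-1.999) and without each minimal medium library (-2.42 to -2.18).

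In CBS1538 11.1 THI4 had 0.664, 1.06 and 0.477 CPM in minimal medium, 221, 1005 and 774 CPM on day 4, and 3.08, 117 and 9.14 CPM on day 2. The groups did not overlap, and the libraries of day 2 differed more than those of any other group, with replicate 2 at 987 counts against 14 and 78 in replicates 1 and 3. Minimal medium held 8, 8 and 7 counts. The fold between minimal medium and day 4 was 959 (log2 change -9.91, SE 1.21). Against day 2 the log2 change of minimal medium was -5.97 (SE 1.10), and -3.21 without day 2 replicate 2, -6.57 without replicate 1 and -6.57 without replicate 3. In bulk RNA, a high level in all cells of a culture and a higher level in part of them cannot be told apart.

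The S. eubayanus copy of THI4 behaved unlike its neighbours in W34/70 9.7. It had 40 counts over the 9 libraries, while SKN1 and ENP2, the genes on either side, had 2945 and 3133. The same copy had 31419 counts in CBS1538 11.1, where SKN1 and ENP2 had 22638 and 3304. Set against all counts of its chromosome, the copy had 16.3, 15.9 and 12.7 counts per 1000000 S. eubayanus VII counts in minimal medium in W34/70 9.7, and 7.76, 12.9 and 4.90 in CBS1538 11.1. The libraries thus ran from 12.7 to 16.3 in W34/70 9.7 and from 4.90 to 12.9 in CBS1538 11.1. Their 95% Poisson intervals, which cover counting error alone, overlapped. At 4 to 8 counts per library, that overlap does not show that the strains were alike.

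On day 4 the copy reached 22.7 and 45.5 counts per 1000000 S. eubayanus VII counts in W34/70 9.7 (replicates 2 and 3), against 2607, 12240.1 and 9669 in CBS1538 11.1. On day 2 W34/70 9.7 replicate 1 had 6.38 and replicate 3 had 0 of 284445 counts, which allows up to 10.5 on the same scale, against 32.7, 1348 and 103 in CBS1538 11.1. The 2 libraries with few VII counts had 0 THI4 counts on this copy and too few chromosome counts to say more. Reads that match both sub-genomes may be counted on either copy, and how that was handled is not given in the sources used here.

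**Figure D2:**
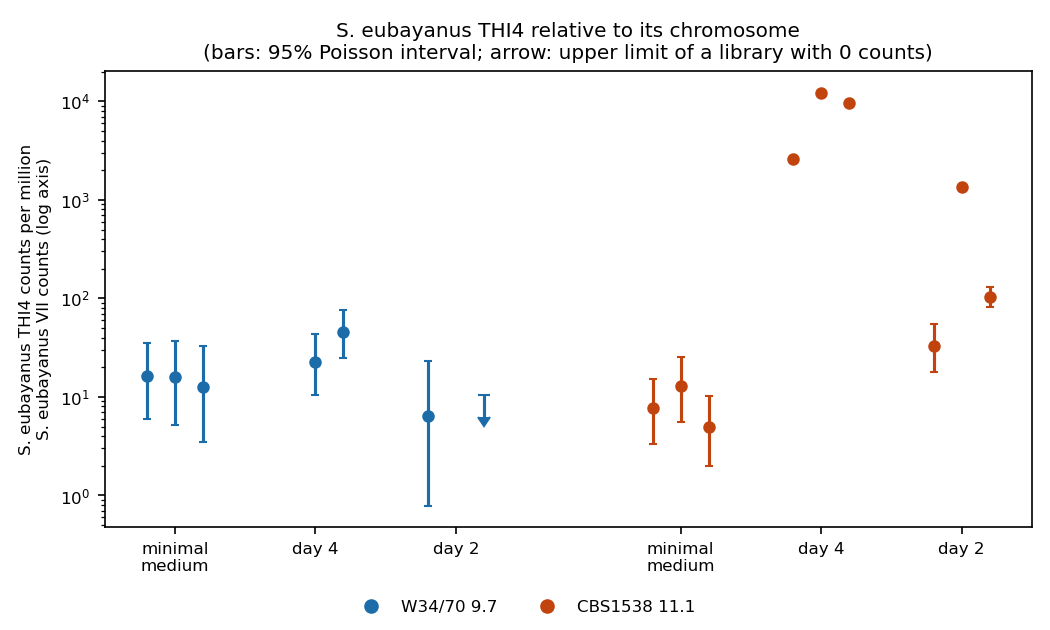
S. eubayanus THI4 counts per 1000000 counts on S. eubayanus VII in each library, on a log axis, with 95% Poisson intervals; W34/70 9.7 day 4 replicate 1 and day 2 replicate 2 are left out. In minimal medium the libraries of both strains lie between 4.90 and 16.3, on 4 to 8 counts each. On day 4 the strains lie apart, at 22.7 and 45.5 in W34/70 9.7 and 2607 to 12240.1 in CBS1538 11.1.

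THI20 and THI21 encode kinases that phosphorylate the pyrimidine. THI20 showed the largest day 4 change of the 8 genes in W34/70 9.7. It had 20.7, 18.1 and 20.0 CPM in minimal medium, 84.3, 206 and 232 CPM on day 4, and 64.3, 28.3 and 50.6 CPM on day 2, with no overlap between the groups. It was 3.65-fold higher on day 4 than on day 2 (log2 change 1.87, SE 0.321, adjusted p = 0.000408, edgeR), 8.88-fold lower in minimal medium than on day 4 (-3.15, SE 0.337, adjusted p = 1.12e-06, edgeR), and 2.43-fold lower in minimal medium than on day 2 (-1.28, SE 0.319, adjusted p = 0.002, edgeR). Both copies took part in the day 4 rise, the S. cerevisiae copy at 2.02 (adjusted p = 0.0089, edgeR) and the S. eubayanus copy at 1.27 (adjusted p = 0.009, edgeR).

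THI20 moved alike in CBS1538 11.1. It had 15.4, 14.7 and 14.1 CPM in minimal medium, 110.1, 148 and 116 CPM on day 4, and 33.0, 21.3 and 26.7 CPM on day 2, again with no overlap. Its log2 change was 2.21 (SE 0.329) comparing day 4 with day 2 and -3.08 (SE 0.34) comparing minimal medium with day 4. Its fall in minimal medium relative to day 2 was -0.87 (SE 0.327), and the call was lost without day 2 replicate 1 (-0.78), minimal medium replicate 2 (-0.86) or minimal medium replicate 3 (-0.83), and with the replicate number as a block (-0.86).

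THI21, the paralog of THI20, moved less. Like THI3 it has a named row on the S. cerevisiae sub-genome alone, with counts in W34/70 9.7 only. It had 10.1, 11.7 and 11.0025 CPM in minimal medium, 20.8, 24.2 and 28.1 CPM on day 4, and 10.7, 15.0 and 12.9 CPM on day 2. Day 4 was above both other conditions in every library. It was 1.89-fold higher on day 4 than on day 2 (log2 change 0.92, SE 0.255, adjusted p = 0.0155, edgeR) and 2.23-fold lower in minimal medium than on day 4 (-1.16, SE 0.255, adjusted p = 0.0026, edgeR). The call of day 4 against day 2 was lost without day 2 replicate 1 (0.75), day 2 replicate 3 (0.85), day 4 replicate 2 (0.84) or day 4 replicate 3 (0.73). THI20 and THI21 are similar in sequence and of equal length (1656 bases), so reads may be shared between them.

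THI6 joins the pyrimidine and the thiazole to thiamine phosphate and also phosphorylates the thiazole. In W34/70 9.7 it had 45.7, 46.7 and 48.6 CPM in minimal medium, 71.0, 110.2 and 101 CPM on day 4, and 102, 53.2 and 117 CPM on day 2. Minimal medium was below wort in every library, and the days overlapped. It fell 2.00-fold in minimal medium against day 4 (log2 change -1.003, SE 0.232, adjusted p = 0.00157, edgeR) and 1.93-fold against day 2 (-0.95, SE 0.232, adjusted p = 0.00173, edgeR). The copies differed in how clearly they did so: the S. eubayanus copy gave -2.07 and -1.77 (adjusted p = 6.92e-07 and 1.51e-06, edgeR), and the S. cerevisiae copy -0.80 and -0.81 (adjusted p = 0.264 and 0.229, edgeR), against day 4 and day 2. The S. cerevisiae copy had 39.1 to 40.4 CPM in minimal medium. In wort it had 43.0 and 32.4 CPM in the libraries that lacked S. eubayanus VII counts, and 73.9 to 92.3 CPM in the others. A fit of the copies apart without those libraries was not run.

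THI6 had a clearer day 4 peak in CBS1538 11.1, with 42.4, 36.8 and 39.5 CPM in minimal medium, 313, 371 and 317 CPM on day 4, and 86.7, 110.1 and 97.1 CPM on day 2. The groups did not overlap and were tight. Its log2 change was 1.77 (SE 0.236) for day 4 against day 2, -3.07 (SE 0.249) for minimal medium against day 4 and -1.31 (SE 0.236) for minimal medium against day 2.

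THI7, the thiamine transporter of the plasma membrane, was the most variable member among W34/70 9.7 wort libraries. It had 39.7, 25.4 and 49.8 CPM in minimal medium, 67.0, 362 and 376 CPM on day 4, and 143, 34.9 and 88.2 CPM on day 2. Day 4 replicate 1 lay below day 2 replicate 1, so the days overlapped. It was 3.02-fold higher on day 4 than on day 2 (log2 change 1.60, SE 0.495, adjusted p = 0.0181, edgeR) and 7.00-fold lower in minimal medium than on day 4 (-2.81, SE 0.517, adjusted p = 0.000234, edgeR). Minimal medium against day 2 gave -1.21 (SE 0.493, adjusted p = 0.0395, edgeR). With the copies apart, day 4 against day 2 gave 1.53 for the S. cerevisiae copy and 1.66 for the S. eubayanus copy (adjusted p = 0.151 and 0.0298, edgeR). Minimal medium against day 2 gave -0.95 and -1.65 (adjusted p = 0.295 and 0.016, edgeR). Against day 4 both copies were called, at -2.48 and -3.31 (adjusted p = 0.0244 and 0.0003, edgeR).

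The THI7 calls depended on single libraries. For day 4 against day 2 the call was lost without day 2 replicate 2 (1.21), day 2 replicate 3 (1.51), day 4 replicate 2 (1.22) or day 4 replicate 3 (1.18), and with the 2 compared groups alone in the fit (1.53, adjusted p = 0.137, edgeR). Without both libraries that lacked S. eubayanus VII counts it was 1.67 (adjusted p = 0.000439, edgeR). For minimal medium against day 2 it was lost without day 2 replicate 1 (-0.77), day 2 replicate 3 (-1.33), minimal medium replicate 1 (-1.38) or minimal medium replicate 2 (-1.13), with library totals as the scaling (-0.81, adjusted p = 0.151, edgeR) and with the replicate number as a block (-1.21, adjusted p = 0.0538, edgeR).

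In CBS1538 11.1 THI7 had 127, 108 and 114 CPM in minimal medium, 685, 605 and 585 CPM on day 4, and 135, 185 and 138 CPM on day 2. Day 4 stood well above the other groups, which lay close to each other. Its log2 change was 2.03 (SE 0.502) for day 4 against day 2 and -2.43 (SE 0.508) for minimal medium against day 4, and minimal medium against day 2 was not called at -0.40 (SE 0.486).

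PHO3, an acid phosphatase that releases thiamine from its phosphates outside the cell, was low throughout and passed the test in none of the 9 comparisons or the 2 tests of a strain difference. It had 3.40, 4.52 and 4.42 CPM in minimal medium, 7.01, 7.25 and 6.63 CPM on day 4, and 7.63, 7.79 and 4.85 CPM on day 2 in W34/70 9.7. Minimal medium lay below wort in every library of that strain, at -0.76 (SE 0.368, adjusted p = 0.0899, edgeR) against day 4 and -0.72 (SE 0.371, adjusted p = 0.0983, edgeR) against day 2. In CBS1538 11.1 it had 1.58, 3.58 and 2.59 CPM in minimal medium, 4.17, 4.74 and 3.98 CPM on day 4, and 7.04, 3.55 and 1.99 CPM on day 2, with the origin of those reads uncertain. In W34/70 9.7 both of its minimal medium changes passed under 1 or more other settings, at -0.82 against day 2 with DESeq2 (adjusted p = 0.0441) and -0.77 against day 4 with the 2 compared groups alone in the fit (adjusted p = 0.0184, edgeR).

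The libraries W34/70 9.7 day 4 replicate 1 and day 2 replicate 2, which lacked S. eubayanus VII counts, were the lowest of their groups for THI2, THI4, THI6, THI7 and THI20. Only THI4 of these has a copy on VII, and that copy held 0 to 14 counts in the other libraries. The part of these libraries in the spread of the genes was not tested. Without both, THI20 gave 1.93 and THI21 1.15 for day 4 against day 2, and the counts of called members below were the same in the within-strain comparisons.

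As a set, 3 of the 8 genes (THI7, THI20 and THI21) were called higher on day 4 than on day 2 in W34/70 9.7 and none lower, at an adjusted p under 0.05 over all genes (edgeR), where 20.9% of all genes tested in that comparison were called higher. The median log2 change of the 8 was 0.52, against 0.07 over all genes. The count was 1 without day 2 replicate 3, without day 4 replicate 2 or without day 4 replicate 3. In minimal medium against day 4, 6 of the 8 were called lower (THI2, THI4, THI6, THI7, THI20 and THI21), against 28.9% of all genes, with a median of -1.72 against -0.03. In minimal medium against day 2, 5 of the 8 were called lower (THI2, THI3, THI6, THI7 and THI20), against 32.4% of all genes, with a median of -1.09 against -0.01. The count was 3 with library totals as the scaling, which moved the median of all genes by 0.35 in that comparison and by 0.45 in day 4 against day 2.

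In CBS1538 11.1 the counts of calls are a description and no test of the set, since its change was known when the genes were chosen. The calls are those of the same fit, at an adjusted p under 0.05 (edgeR). Of the 6 genes with counts, 5 were called higher on day 4 than on day 2 (all but PHO3), where 19.9% of all genes were called higher, and with the replicate number as a block the count was also 5. The same 5 were called lower in minimal medium than on day 4, where 26.6% of all genes were. Between minimal medium and day 2, THI2 was called higher and THI4, THI6 and THI20 lower, where 31.6% of all genes were called higher and 24.3% lower. The choice of the genes used these values, so the shares of all genes stand beside the counts and nothing is read from them. The 3 comparisons of a strain share libraries, so their counts are not independent.

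**Figure D3:**
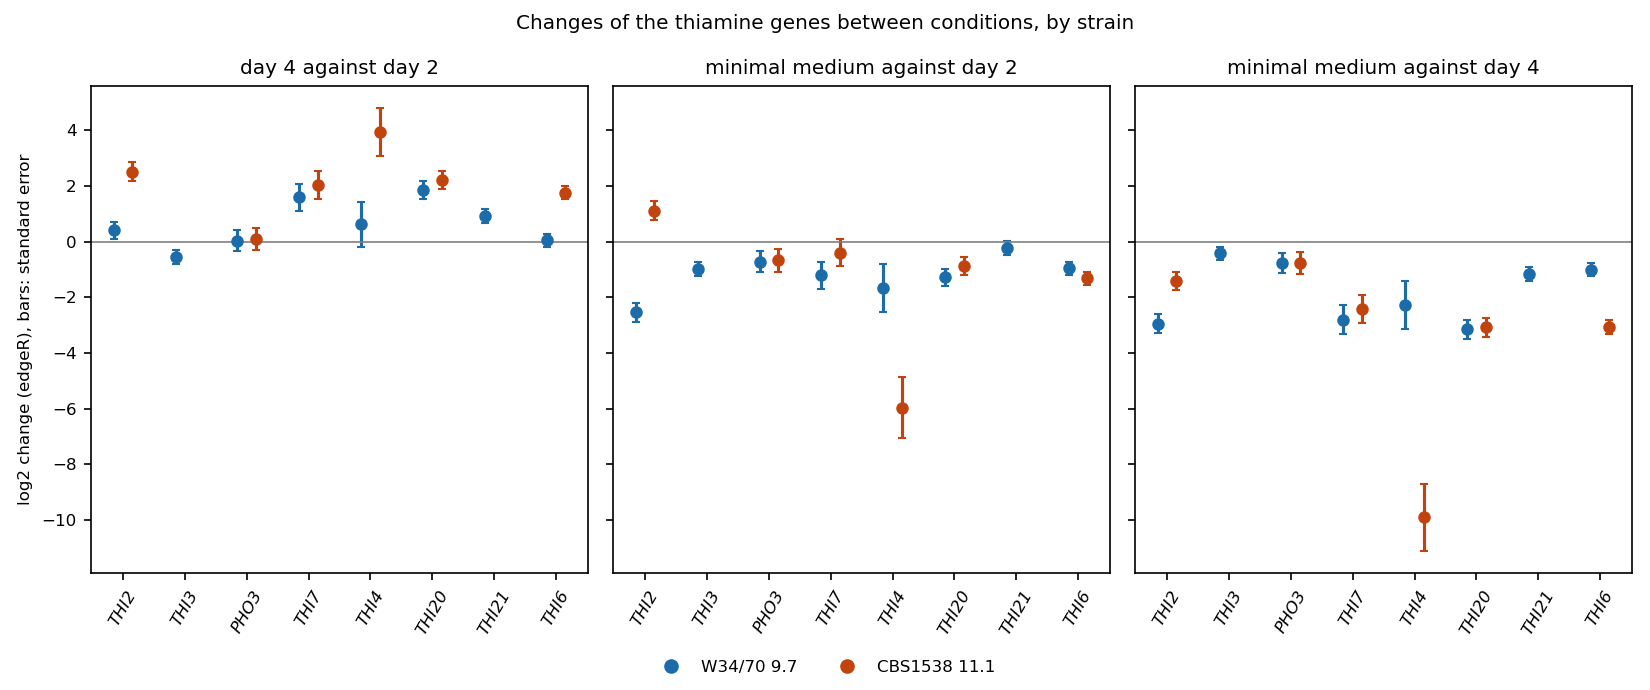
Log2 change of each gene (edgeR) with a standard error derived from the test's F statistic, in 3 comparisons, W34/70 9.7 left of CBS1538 11.1. The rows of THI3 and THI21, on the S. cerevisiae sub-genome alone, had no counts in CBS1538 11.1. For minimal medium against day 4, THI20 lies at -3.15 in W34/70 9.7 and -3.08 in CBS1538 11.1, and THI4 at -2.29 in W34/70 9.7 and -9.91 in CBS1538 11.1.

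The strains were set against each other in each condition, as a description and without a p-value. The number of copies of each gene per cell was not measured, so a difference between strains holds any difference in gene copies. THI3 and THI21 were called higher in W34/70 9.7 in all 3 conditions because their rows, on the S. cerevisiae sub-genome alone, had 0 counts in CBS1538 11.1. Against a limit of 3 counts over a group of libraries, the THI3 row was at least 239.7-fold (minimal medium), 413.7-fold (day 4) and 296-fold (day 2) higher. The THI21 row was at least 124.6-fold, 358-fold and 92.4-fold higher. These limits hold for the named rows, since S. eubayanus rows without a symbol were not searched for counterparts. THI3 and THI21 could differ in that direction only and are left out of the counts below. Those counts cover the 6 genes with counts in both strains. They stand beside shares over all genes with at least 10 counts in each strain. In minimal medium, THI2 and THI7 were called lower in W34/70 9.7. THI2 had 5.81 ± 1.11 CPM in W34/70 9.7 and 16.9 ± 1.51 CPM in CBS1538 11.1 (SD, n = 3 each, log2 difference -1.54, SE 0.328). THI7 had 38.3 ± 12.3 CPM in W34/70 9.7 and 116 ± 9.84 CPM in CBS1538 11.1 (-1.60, SE 0.497). THI4 gave 2.21 and was not called. Of the 6 genes none was called higher and 2 lower, against 33% and 32.3% of such genes.

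On day 4, THI6 was called lower in W34/70 9.7 (94.2 ± 20.5 CPM, against 334 ± 32.6 CPM in CBS1538 11.1, SD, n = 3 each, log2 difference -1.82, SE 0.236). THI7 was called lower as well (268 ± 174 CPM, against 625 ± 53.2 CPM in CBS1538 11.1, log2 difference -1.22, SE 0.488). That call was lost without W34/70 9.7 day 4 replicate 1 (-0.80), CBS1538 11.1 day 4 replicate 1 (-1.18) or replicate 2 (-1.28). It was also lost with library totals as the scaling (-1.04) and with the compared groups alone in the fit (-1.24). THI4 was lower at 15.7 ± 6.66 CPM in W34/70 9.7, against 667 ± 403 CPM in CBS1538 11.1, a difference of -5.41 that is given as a description. None of the 6 was called higher and 3 lower, THI4 among them, against 32.5% and 30.3% of such genes. THI20, at 174 ± 78.9 CPM in W34/70 9.7 and 125 ± 20.5 CPM in CBS1538 11.1, overlapped between the strains (0.48, not called), and was called at 0.81 without both libraries that lacked S. eubayanus VII counts.

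On day 2, THI2 was called higher in W34/70 9.7 (33.96 ± 10.9 CPM, against 7.76 ± 3.34 CPM in CBS1538 11.1, SD, n = 3 each, log2 difference 2.13, SE 0.339). THI20 was called higher at 0.83 and THI4 lower at -2.10, both as descriptions. The THI4 value turned to 0.66 without CBS1538 11.1 day 2 replicate 2, and was -1.95 without W34/70 9.7 replicate 2, -2.14 without replicate 1 and -2.20 without replicate 3, each of which ended the call, as did the compared groups alone in the fit (-2.14) and the replicate number as a block (-1.36). THI20 lost its call without W34/70 9.7 replicate 1 (0.54), W34/70 9.7 replicate 3 (0.80), CBS1538 11.1 replicate 2 (0.68) or CBS1538 11.1 replicate 3 (0.83), with library totals as the scaling (0.68) and with the compared groups alone in the fit (0.78). Of the 6, THI2 and THI20 (2 genes) were called higher and THI4 (1 gene) lower, against 28.8% and 26.6% of such genes. With THI3 and THI21 counted in, which could be called in 1 direction only, 5 of the 8 were called. That is near the share over all genes, of which 61.9% were called in either direction. The count was 3 without W34/70 9.7 day 2 replicate 3 or without CBS1538 11.1 day 2 replicate 2.

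Whether a change differed between the strains was examined for the 6 genes with counts in both. The CBS1538 11.1 changes, given without a p-value, enter each difference, so the differences are a description too. For day 4 against day 2, the changes of THI2 and THI6 were smaller in W34/70 9.7. THI2 changed by 0.41 in W34/70 9.7 and 2.52 in CBS1538 11.1 (difference -2.11, SE 0.456). THI6 changed by 0.05 in W34/70 9.7 and 1.77 in CBS1538 11.1 (difference -1.72, SE 0.327). So 2 of 6 were called, beside 12.4% of all genes, and nothing is read from that count. With the copies summed, both kept their direction and their call under every alternative tried, including each library left out. In W34/70 9.7 most counts of both genes lay on S. cerevisiae copies, and in CBS1538 11.1 nearly all lay on S. eubayanus copies. The S. eubayanus copies alone changed by 1.28 (THI2) and 0.30 (THI6) in W34/70 9.7, neither called. In CBS1538 11.1 they changed by 2.48 and 1.73. Whether the change of a single copy differs between the strains was not tested. The difference for THI4 was -3.31 (SE 1.14) and was not called; it was called at -3.86 with the replicate number as a block and at -6.08 without CBS1538 11.1 day 2 replicate 2.

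For minimal medium against day 4, 2 of the 5 genes other than THI4 were called, where 28.1% of all genes were. THI6 fell less in W34/70 9.7, at -1.003 against -3.07 in CBS1538 11.1 (difference 2.07, SE 0.329). THI2 fell further in W34/70 9.7, at -2.95 against -1.40 in CBS1538 11.1 (difference -1.55, SE 0.449). The THI2 call was lost without CBS1538 11.1 day 4 replicate 1 (-1.40), W34/70 9.7 day 4 replicate 3 (-1.34) or W34/70 9.7 minimal medium replicate 2 (-1.39). THI4 fell less in W34/70 9.7 by 7.62 (SE 1.39). All 3 are given as a description, with the copies summed. The S. eubayanus copies alone gave -2.07 (THI2) and -2.07 (THI6) in W34/70 9.7. In CBS1538 11.1 they gave -1.50 and -3.17, and the strain difference of single copies was not tested. THI7, THI20 and PHO3 were not called in either test of a strain difference.

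In W34/70 9.7 the genes with a row in each sub-genome had counts on both copies. The share of a gene's counts on the S. eubayanus copy differed from gene to gene. It also moved with the condition in different directions. Over all genes with both copies the median share was 29.5% to 36.0% in the 9 libraries. THI7 was above it, at 41.7%, 46.3% and 43.1% in minimal medium, 58.5%, 56.9% and 58.4% on day 4, and 54.1%, 62.5% and 55.2% on day 2. Minimal medium lay below every wort library.

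THI2 went the other way, at 28.9%, 27.5% and 24.8% in minimal medium, 8.93%, 15.5% and 15.2% on day 4, and 9.51%, 7.49% and 5.14% on day 2. THI20 had 27.2%, 28.8% and 25.3% in minimal medium, 17.2%, 15.5% and 12.3% on day 4, and 22.1%, 25.3% and 19.9% on day 2. For both, the S. cerevisiae copy held a larger share on day 4 than in minimal medium. THI6 had its lowest shares in minimal medium, at 14.4%, 13.7% and 17.0%, against 39.5%, 27.0% and 27.1% on day 4 and 23.7%, 39.1% and 21.5% on day 2. Its 2 highest values, 39.5% and 39.1%, were those of the libraries that lacked S. eubayanus VII counts, where the S. cerevisiae copy had 43.0 and 32.4 CPM, against 73.9 to 92.3 CPM in the other wort libraries. THI4 stayed at 0% to 8.33%. Its 0% in the libraries that lacked S. eubayanus VII counts goes with the chromosome, which held 1417 and 1465 counts there. These shares are given as descriptions, with no test.

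**Figure D4:**
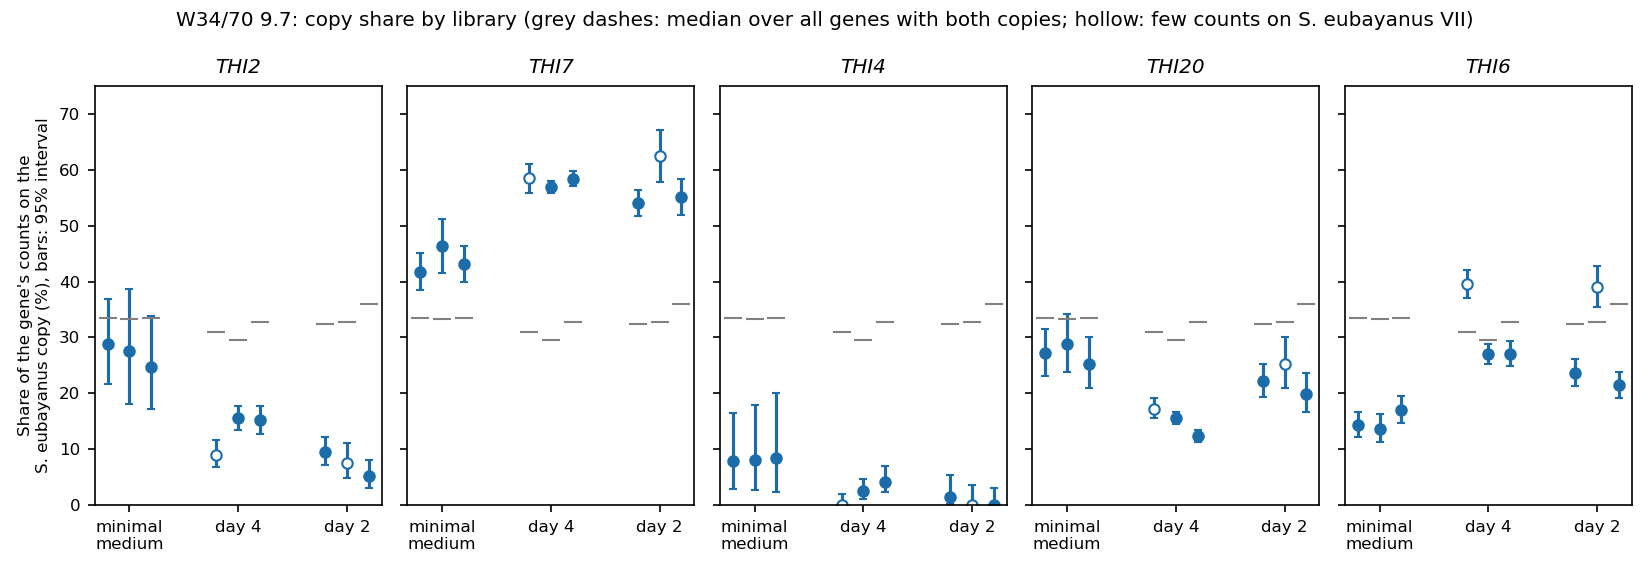
Share of a gene's counts on its S. eubayanus copy (%) in each W34/70 9.7 library, with 95% Clopper-Pearson intervals that cover counting error alone; grey dashes are the median over all genes with both copies. THI7 lies above the median in all 9 libraries (41.7% to 62.5%) and THI4 far below it (0% to 8.33%). Hollow points are the libraries that lacked S. eubayanus VII counts, where THI4 was at 0%.

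The other genes of thiamine metabolism, a list of 11, were looked at in the same fit. In W34/70 9.7, 4 were higher on day 4 than on day 2 and 1 lower, where 20.9% of all genes were higher and 17.2% lower, with a median of 0.46 against 0.07 over all genes. THI22, a relative of THI20, had 24.7 ± 0.137 CPM on day 4 and 8.38 ± 0.893 CPM on day 2 (SD, n = 3 each; log2 change 1.56, adjusted p = 0.000949, edgeR). THI80, the kinase that makes thiamine diphosphate (1.43, adjusted p = 0.00118, edgeR), THI73, a transporter-like gene (1.43, adjusted p = 0.00287, edgeR) and PET18 (1.53, adjusted p = 0.00475, edgeR) rose too, and THI72, a transporter paralogous to THI7, fell (-1.07, adjusted p = 0.0129, edgeR). THI5, THI11, THI12 and THI13, which build the pyrimidine and are nearly identical in sequence, had 0.583 to 3.04 CPM on day 4 and were not called. PDC2, a regulator with Thi2 and Thi3 (0.51), and TPC1, the mitochondrial carrier of thiamine diphosphate (-0.40), were not called.

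In minimal medium against day 4, 5 of the 11 were lower in W34/70 9.7 and none higher, where 28.9% of all genes were lower and 26.3% higher, with a median of -1.33 against -0.03. They were THI11 (-1.35), THI22 (-2.32), THI72 (-1.39), THI73 (-2.88) and PET18 (-2.13), with adjusted p-values of 3.43e-06 to 0.0178 (edgeR). Relative to day 2, where 32.4% of all genes were lower in minimal medium and 33.1% higher, 4 were lower (THI11, THI22, THI72 and THI73) and 2 higher, THI80 at 1.97 (adjusted p = 1.65e-05, edgeR) and PDC2 at 0.49 (adjusted p = 0.0398, edgeR). THI80 had 49.2 ± 4.41 CPM in minimal medium, 33.8 ± 7.54 CPM on day 4 and 12.5 ± 2.87 CPM on day 2.

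In CBS1538 11.1, THI11, THI22 and THI72 had 0 counts. Of the other 8, 5 were called higher on day 4 than on day 2 (THI5, THI12, THI73, PDC2 and PET18) and TPC1 lower, where 19.9% of all genes were higher and 16.7% lower. THI12 had 15.6 ± 9.96 CPM on day 4 and 1.50 ± 2.30 CPM on day 2, and THI5 had 8.27 ± 5.04 CPM on day 4 and 1.02 ± 1.78 CPM on day 2 (SD, n = 3 each), as counts on 1 of several near-identical copies. THI73 had 125 ± 12.3 CPM on day 4 and 36.6 ± 8.67 CPM on day 2. In minimal medium against day 4, 7 of the 8 were called lower, where 26.6% of all genes were, with a median of -2.83 against 0. In minimal medium against day 2 THI73 and TPC1 were lower, where 24.3% of all genes were.

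Among 10 enzymes that use thiamine diphosphate, 7 fell and 1 rose on day 4 against day 2 in W34/70 9.7, where 17.2% of all genes fell and 20.9% rose, with a median of -0.74 against 0.07. PDC1, the main pyruvate decarboxylase, had 3288 ± 992 CPM on day 4 and 11121 ± 1042 CPM on day 2 (SD, n = 3 each; -1.76, adjusted p = 0.00136, edgeR). TKL1, the main transketolase, gave -1.06, TKL2 -1.42 and PDA1, of pyruvate dehydrogenase, -0.86, with adjusted p-values of 0.000765 to 0.00282 (edgeR). In CBS1538 11.1, 1 of the 8 with counts fell, where 16.7% of all genes did: PDC1, with 1718 CPM on day 4 and 3976 CPM on day 2 on average. Relative to day 4, 2 of the 10 rose and 4 fell in minimal medium in W34/70 9.7, where 26.3% of all genes rose and 28.9% fell, with PDC1 at 1.78. In CBS1538 11.1, 2 of the 8 rose and 2 fell, where 29.1% of all genes rose and 26.6% fell, with PDC1 at 2.39.

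Of 10 vitamin B6 genes, whose product is a precursor of the pyrimidine, 8 could be tested on day 4 against day 2 in W34/70 9.7 (they passed the filter on low counts and had at least 10 counts over the compared libraries). Of these, 1 rose and 2 fell, where 20.9% of all genes rose and 17.2% fell. PDX3, the oxidase that makes pyridoxal phosphate, fell (-1.17, adjusted p = 0.000705, edgeR). Relative to day 4, none of the 8 was called in minimal medium in W34/70 9.7, where 26.3% of all genes rose and 28.9% fell. In CBS1538 11.1, 2 of 9 tested rose and 1 fell on day 4 against day 2, where 19.9% of all genes rose and 16.7% fell, and 1 rose and 2 fell of 9 in minimal medium against day 4, where 29.1% rose and 26.6% fell. Among 5 acid phosphatase and phosphate uptake genes, none of the 4 tested was called on day 4 against day 2 in W34/70 9.7, where 20.9% of all genes rose and 17.2% fell. Of the 4, 3 fell in minimal medium against day 4, where 28.9% of all genes did, among them the phosphate transporter PHO84 (-4.50, adjusted p = 4.57e-05, edgeR) and PHO5 (-2.34, adjusted p = 0.00641, edgeR). In CBS1538 11.1, none of the 2 tested was called on day 4 against day 2, where 19.9% of all genes rose and 16.7% fell. PHO84 fell in minimal medium against day 4 (-2.20), where 26.6% of all genes did.

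The genes whose profile lay closest to that of THI4 were found by the mean absolute difference of log2(CPM + 1) after centring each gene, among 5973 other genes over 18 libraries. They were SSA4, a heat-inducible Hsp70 chaperone (difference 1.13), DI49_4841 (1.31), DI49_5682 (1.33), YNR068C (1.34) and SDH2, a subunit of succinate dehydrogenase (1.35). THI6 was the closest member, at rank 14 (1.45), and THI7 came at rank 61. Within the 9 libraries of W34/70 9.7 they were RNY1, YER079W, YNL011C, DI49_0850 and PKH1 (0.134 to 0.189), and within those of CBS1538 11.1 SPG1, DI49_0774, BOP2, DI49_4768 and HSP26 (1.33 to 1.79). The lists share no gene, and the distances in CBS1538 11.1 are large beside those in W34/70 9.7, where THI4 varied less.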

How the data were processed

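RNA-seq (paired-end) of 18 libraries was taken from the deposited table of raw read counts per gene. The authors used STAR, SAMtools, featureCounts and DESeq2, per the submitters' processing notes, which name the R64 build; the sources used here do not give versions, the S. eubayanus assembly, the strand setting or how reads that match both sub-genomes were treated. No per-sample column was left unused (0), and no genome was used, so no sequence is shown.

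Counts of copies that share a gene name were summed. Genes were filtered (filterByExpr, minimum count 10, minimum total 15), leaving 6633 gene names, and tested with edgeR 4.0.16 (R 4.3.3; TMM scaling, quasi-likelihood test, 1 mean for each of 6 groups over all 18 libraries), with Benjamini-Hochberg adjustment over all genes and a threshold of 0.05. A second fit used the 10894 rows that passed, copies apart. CPM are per effective library size. The script was tested on simulated data. Alternatives were DESeq2 1.42.0, library totals, no filter, the compared groups alone, a replicate block, each library left out, and both libraries without S. eubayanus VII counts left out. Intervals and limits cover counting error only. Replicates of a group differed by more than sampling noise (chi-square per degree of freedom 17.4 or more). The p-values set a change against a spread between replicates that was estimated over all 18 libraries of both strains.

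The 8 genes and the lists were chosen with earlier results of these data known. The genes named are the 8 members, all of the other thiamine genes, at most 4 called genes of each further list by smallest p, and the 5 genes nearest to THI4 in profile (mean of at least 5 CPM). Same-numbered libraries deviated together in every pair only for CBS1538 11.1 day 4 against day 2 (correlations 0.305, 0.105 and 0.221), where 5 genes were called with and without the replicate block. In W34/70 9.7 the same-numbered libraries of day 4 and day 2 gave -0.603, -0.410 and 0.483. The highest value there was 0.744, between day 4 replicate 1 and day 2 replicate 2, the libraries that lacked S. eubayanus VII counts. The replicate block does not cover a pairing across numbers, which was not tested. The numbers come from the titles, which state no pairing.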

Additional observations from a re-analysis of the deposited data

Results flagged for a closer look

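The changes of 3 genes were called different between the strains (W34/70 9.7 change minus CBS1538 11.1 change, log2, edgeR). They are given as a description, since the CBS1538 11.1 changes enter them. The copies are summed, so they set mostly S. cerevisiae copies in W34/70 9.7 against S. eubayanus copies in CBS1538 11.1. For day 4 against day 2 the difference was -2.11 for THI2 and -1.72 for THI6. For minimal medium against day 4 it was -1.55 for THI2, 2.07 for THI6 and 7.62 for THI4. Both comparisons share the day 4 libraries, and the first also uses the CBS1538 11.1 day 2 libraries with conflicting strain labels. Leaving out 1 library ended the call of THI2 in minimal medium against day 4 in 3 cases, with values of -1.40, -1.34 and -1.39.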

How the results depend on the processing

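Of the values of single genes, 758 kept their direction and side of the threshold under the alternatives, 51 fell below it, 19 passed it and 27 changed sign. The number of genes called in W34/70 9.7 was 1 to 3 for day 4 against day 2 when 1 library was left out, and 3 for minimal medium against day 2 with library totals. Between the strains on day 2, with THI3 and THI21 counted in, it was 3 with the compared groups alone and 3 to 6 when 1 library was left out. In the main fit 61.9% of all genes were called in that comparison. With the replicate block the count was 3 for W34/70 9.7 day 4 against day 2, 4 and 6 for minimal medium against day 2 and day 4; in CBS1538 11.1 it was 5, 3 and 5 in the same order; the block ended the calls of THI7, THI20 and THI4 given with those genes and made the THI4 strain difference for day 4 against day 2 a call (-3.86).

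The values that changed sign were near 0 and not called, except THI4 between the strains on day 2, which ran from -2.62 to 0.66 when 1 library was left out. For day 4 against day 2 in W34/70 9.7, PHO3 was -0.022 with DESeq2, -0.042 with no filter, -0.016 with the compared groups alone and -0.22 to 0.15 when 1 library was left out; THI6 was -0.011 with DESeq2, -0.055 without both libraries lacking S. eubayanus VII counts, -0.033 with no filter, -0.011 with the compared groups alone, -0.012 for the S. cerevisiae copy and -0.22 to 0.20 when 1 library was left out. PHO3 in CBS1538 11.1 was -0.32 to 0.58. THI21 in W34/70 9.7 minimal medium against day 2 was 0.10 with library totals. Between the strains, THI6 on day 2 was 0.17 without both of those libraries and -0.32 to 0.17 when 1 was left out, and THI2 on day 4 was -0.022 with no filter, -0.0070 with the compared groups alone and -0.21 to 0.24 when 1 was left out. The cause was not tested. Depth limits THI4 most, at 7 to 8 counts per CBS1538 11.1 minimal medium library.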
